A study of Rattus norvegicus with 6 samples.

Results

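Heat shock proteins and their co-chaperones were followed in inflamed rat joint tissue, with 32 of 33 listed genes found by their symbol on the array. They were 32 of 35071 gene names on the array, read by 50 of the 41012 probes that are not controls. Ahsa1 had no probe of that name. The samples were synovial tissue from the hind leg ankle joints of male rats 8 weeks old, a strain not named in the labels. All animals carried adjuvant arthritis, joint inflammation provoked by Freund's complete adjuvant, which was given at 0.1 ml into the peritoneum daily for 18 days. The arthritis group (n = 3 arrays) then received saline and the triptolide group (n = 3 arrays) received triptolide at 0.4 mg/kg, each daily for 14 days. Triptolide is a diterpenoid of the vine Tripterygium wilfordii. The labels number the replicates without saying that they came from separate animals, so p-values here reflect only how far these samples spread, which may be technical. No group without arthritis was analysed here.

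Heat shock proteins are chaperones that hold, fold or disaggregate other proteins. HSP70 binds exposed hydrophobic stretches in a cycle driven by ATP, J-domain proteins deliver the clients and start that cycle, HSP110 and BAG proteins exchange the nucleotide, and HSP90 takes over kinases and steroid receptors in late steps of folding. Small heat shock proteins need no ATP and hold unfolding proteins in oligomers. Under proteotoxic stress the transcription factor HSF1 binds heat shock elements and induces many of these genes, whereas Hspb2, Hspb3, Hspb6, Hspb7 and Cryab are known above all from skeletal and heart muscle. Triptolide binds the XPB subunit of the general transcription factor TFIIH, and it has been described in cultured cells as an inhibitor of transcription driven by HSF1. The 33 genes were therefore taken in 3 classes, 18 induced by stress, the 5 muscle-linked small heat shock proteins, and 10 others that are largely constitutive, tissue-restricted or regulatory.

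RefSeq promoter sequence (build GRCr8) was found for 26 of the 33 genes, and the 250 bases before each start site were searched on both strands for the heat shock element, in which 5-base units alternate in direction. The element of 3 units was spelled GAANNTTCNNGAA or TTCNNGAANNTTC, and its core of 2 units, which every longer match contains, GAANNTTC or TTCNNGAA. The longer element occurred upstream of 4 of the 26 genes, Hspa8, Hspd1, Hspe1 and Hsph1, and upstream of 0.663% of all 33469 promoters in the table. The core occurred in 14 of the 26 and in 13.5% of all. Hspa1a had neither spelling, and Hspb1, Dnajb1 and Bag3 had the core only. Hspa1b and Hsp90aa1 were among the genes without sequence. Elements farther upstream or spelled otherwise would be missed, so no match does not mean no element. The stretches that hold the full element are shown because HSF1 is known to act through it. The levels of their genes ranged over the 6 arrays by 0.21 (Hspd1), 0.22 (Hspe1), 0.52 (Hspa8) and 0.97 (Hsph1) log2 units. They are printed 5′ to 3′, ending 1 base before the start site, with the 3-unit elements in capitals. Hspd1 and Hspe1, the subunits of the mitochondrial chaperonin, are transcribed in opposite directions from start sites 290 bases apart, so the Hspe1 stretch (chr9:64084177-64084326, plus strand) holds the elements of both genes, as 2 overlapping matches. The Hspa8 stretch is chr8:50080264-50080513 (plus strand) and that of Hsph1 is chr12:10427218-10427367 (plus strand).
Hspe1: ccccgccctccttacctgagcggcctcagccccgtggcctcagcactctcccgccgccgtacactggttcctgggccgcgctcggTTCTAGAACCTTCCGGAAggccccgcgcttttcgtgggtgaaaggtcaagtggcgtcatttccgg
Hspa8: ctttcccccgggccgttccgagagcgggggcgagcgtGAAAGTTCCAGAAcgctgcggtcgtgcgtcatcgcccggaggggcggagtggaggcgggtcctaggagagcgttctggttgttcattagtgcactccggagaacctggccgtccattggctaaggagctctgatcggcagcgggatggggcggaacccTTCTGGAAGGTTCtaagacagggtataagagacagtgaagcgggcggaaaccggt
Hsph1: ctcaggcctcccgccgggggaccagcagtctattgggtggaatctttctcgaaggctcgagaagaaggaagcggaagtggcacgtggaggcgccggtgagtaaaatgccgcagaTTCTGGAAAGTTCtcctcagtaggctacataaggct
A match describes these letters only; binding of HSF1 was not measured.

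The 6 one-colour arrays had 59.6% to 65.1% of their 43379 non-control spots well above background, and their number limits the precision. Arthritis 1 to 3 and triptolide 1 lay on slide 1 and triptolide 2 and 3 on slide 2. Of the synovial markers, 13 of 13 fibroblast genes and 10 of 11 macrophage genes passed the filter on dim probes. Tissue makeup differed between arrays within each group. The mean log2 level of 29 skeletal muscle markers, on a scale where 0 is the array's 75th percentile of intensity, was -3.45, 7.49 and -3.46 on arthritis 1 to 3 and 1.00, -2.59 and 1.24 on triptolide 1 to 3. All 29 were well above background on arthritis 2, triptolide 1 and triptolide 3, against 17 on arthritis 1, 16 on arthritis 3 and 21 on triptolide 2. These 29 were the markers, of 30 listed, that passed the same filter, which asks for signal on at least 3 of 6 arrays. The marker it removed, Myh4, was too dim on every triptolide array. The full count on those arrays was thus partly set by the filter. Triptolide 2 was instead highest in smooth muscle markers (2.50, against -1.35 to 0.34 on the other arrays) and nerve markers (2.43, against -0.90 to 0.36). Arthritis 2 and triptolide 2 also had the lowest fibroblast marker means, at 2.82 and 2.75, where the other arrays lay between 3.40 and 3.88. In bulk tissue, fewer cells of a type and less RNA per cell cannot be told apart.

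No heat shock gene differed between triptolide and arthritis past the threshold. Of the 32 genes, all of which passed the filter on dim probes, 0 had an adjusted p under 0.05 by limma and 0 had an unadjusted p under 0.05, where 0% and 3.24% of all 25777 tested probes did (2.01% higher and 1.23% lower for the latter). Adjusted p-values of the members ran from 0.994 to 0.999. Values were lower with triptolide for 23 genes and higher for 9, while 46.1% of all tested probes were lower and 53.9% higher. With another background correction (normexp) 23 genes and 57.4% of all probes were lower, with quantile normalization 23 genes and 46.4%, and with median centring 24 genes and 51.1%. The median log2 difference was -0.17 over the members and 0.023 over all tested probes. By class, 13 of 17 stress-induced genes were lower (median -0.18), as were 3 of 5 muscle-linked genes (median -0.75, and 4 of 5 under each of these scalings) and 7 of 10 others (median -0.14). The groups failed to overlap for 1 member, Hspa1l, which was lower, and for 8.64% of all tested probes (4.77% higher and 3.87% lower).

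**Figure D1:**
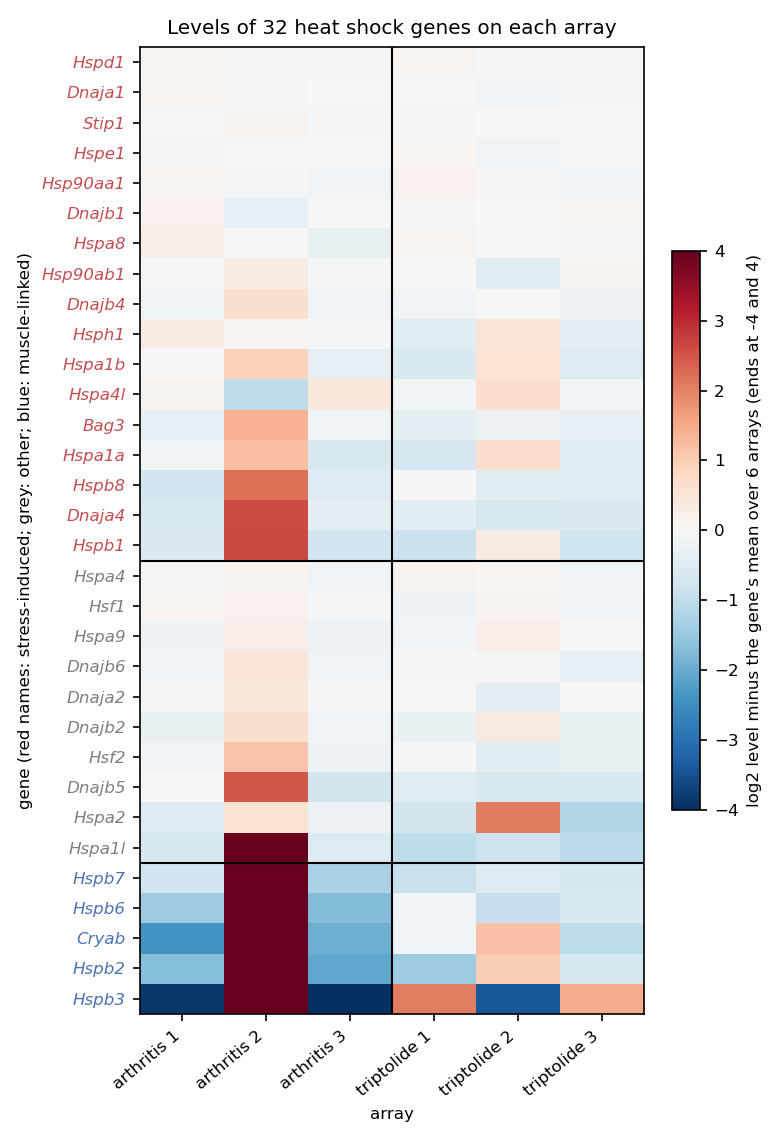
Log2 level of each of the 32 genes minus its own mean over the 6 arrays (colour), by array (columns), with genes grouped by class and sorted by their range. The darkest red lies on arthritis 2, which holds the highest value of 23 genes, while the top rows, such as Hspd1 and Dnaja1, stay near white on all arrays.

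The widest spread followed a single array. Arthritis 2, the array richest in muscle markers, held the highest value of 23 of the 32 genes, against 18.9% of all tested probes. This was so for 5 of 5 muscle-linked genes, 9 of 17 stress-induced genes and 9 of 10 others. Muscle markers averaged 7.49 there and -3.46 to 1.24 on the other arrays. They were higher on triptolide 1 and 3 (1.00 and 1.24) than on arthritis 1 and 3 (-3.45 and -3.46). Of the genes highest on arthritis 2, Hspb2, Hspb3, Hspb6, Hspb8, Cryab, Hspa9, Dnaja2 and Hsp90ab1 were also higher on both these triptolide arrays. The others were not, among them Bag3 (3.93 and 3.98 against 3.96 and 4.12) and Dnaja4 (-1.58 and -1.72 against -1.77 and -1.53). The part of muscle content in this pattern was not tested. Without arthritis 2, 16 members were lower and 16 higher, and the median was -0.032 for stress-induced genes, 1.51 for muscle-linked genes and 0.0010 for others. The value of 1.51 is that of Hspb2, which was not well above background on every arthritis array, so it gives no firm size. The range over the 6 arrays was under 1 on the log2 scale for 16 genes, 10 of them stress-induced, and over 2 for 11, which included every muscle-linked gene.

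Of the inducible HSP70 genes, Hspa1b, which encodes the main stress-inducible HSP70, stood at 0.84, 1.77 and 0.51 on arthritis 1 to 3 and at 0.23, 1.38 and 0.27 on triptolide 1 to 3. Hspa1a, which encodes the same protein from a neighbouring copy, stood at -2.18, -0.83 and -2.68 and at -2.71, -1.34 and -2.46. Both were highest on arthritis 2 and second on triptolide 2, and the groups overlapped. Skeletal muscle markers averaged 7.49 on the former, and nerve and smooth muscle markers 2.43 and 2.50 on the latter. The differences were -0.41 for Hspa1b (SE 0.44, 95% interval -1.49 to 0.66, limma adjusted p = 0.994) and -0.28 for Hspa1a (SE 0.57, 95% interval -1.66 to 1.10, limma adjusted p = 0.994). Without arthritis 2 the values were -0.050 for Hspa1b and 0.25 for Hspa1a, and without triptolide 2 they were -0.79 and -0.69. With slide as a block, which leaves slide 1 with a single triptolide array, they were -0.81 and -0.82. The Hspa1a and Hspa1b probes lie 967 bases apart on the same strand of chromosome 20 (3956838 to 3956897 and 3957864 to 3957923, build rn4). The copies are nearly identical in coding sequence, so which copy each signal came from is uncertain. Both probes may lie in the same copy, so their values need not stand for separate genes. The Hspa1a probe, shown because it may read both copies, is a single spot, while 10 spots of the Hspa1b probe were averaged.
Hspa1a probe: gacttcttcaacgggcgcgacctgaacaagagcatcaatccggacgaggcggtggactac
A second Hspa1b probe was well above background on 0 of the 6 arrays.

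Of the remaining HSP70 genes, 2 were steady and 2 were not. Hspa8, the cytosolic HSP70 that serves unstressed cells, is counted here with the stress-induced class and carries 2 of the elements printed above. It stood at 6.01, 5.76 and 5.49 in arthritis and 5.88, 5.77 and 5.74 with triptolide, all within 0.52. Its difference was 0.044 (SE 0.18, 95% interval -0.39 to 0.48), and its other 3 probes differed by -0.0084, -0.27 and -0.035. Hspa9, the mitochondrial HSP70, differed by 0.11 (SE 0.20). Hspa2, best known from male germ cells, stood at -1.37, -0.28 and -1.10 in arthritis and at -1.59, 1.21 and -2.03 with triptolide. Its peak was on triptolide 2, where nerve and smooth muscle markers averaged 2.43 and 2.50, and lay 3.24 above its lowest value on triptolide 3, and the difference of 0.11 (SE 0.86) became -0.89 without triptolide 2 and -0.67 with slide as a block. Hspa1l, also known from testis, stood at -4.05, 0.74 and -3.90 against -4.37, -4.19 and -4.42. Every triptolide value lay below every arthritis value, and arthritis 2, with muscle markers at 7.49, was 4.93 above the median of the other arrays. It was well above background on 3 arthritis arrays and 1 triptolide array, and its difference of -1.92 (SE 1.26, limma adjusted p = 0.994) was -0.35 without arthritis 2.

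HSP110 proteins act as nucleotide exchange factors of HSP70. Hsph1, the member most readily induced by heat and the bearer of the third printed stretch, stood at -1.51, -1.70 and -1.88 in arthritis and at -2.24, -1.26 and -2.16 with triptolide. Triptolide 1 and 3 lay below all arthritis arrays and triptolide 2 above them. The difference was -0.19 (SE 0.29, 95% interval -0.90 to 0.52), and without triptolide 2 it was -0.50 (SE 0.17). The latter had an adjusted p of 0.752 by limma and 0.0325 unadjusted, where 6.43% of all probes were under 0.05 unadjusted. This setting was singled out after seeing these values, so they support no call. With slide as a block the Hsph1 difference was -0.54. Hspa4l went from -2.28, -3.43 and -1.99 to -2.52, -1.75 and -2.51, a difference of 0.31 (SE 0.43). It was one of 2 members whose lowest value was on arthritis 2, the other being Dnajb1. Hspa4, the constitutive relative, varied by 0.30 over all arrays and differed by 0.048 (SE 0.16).

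**Figure D2:**
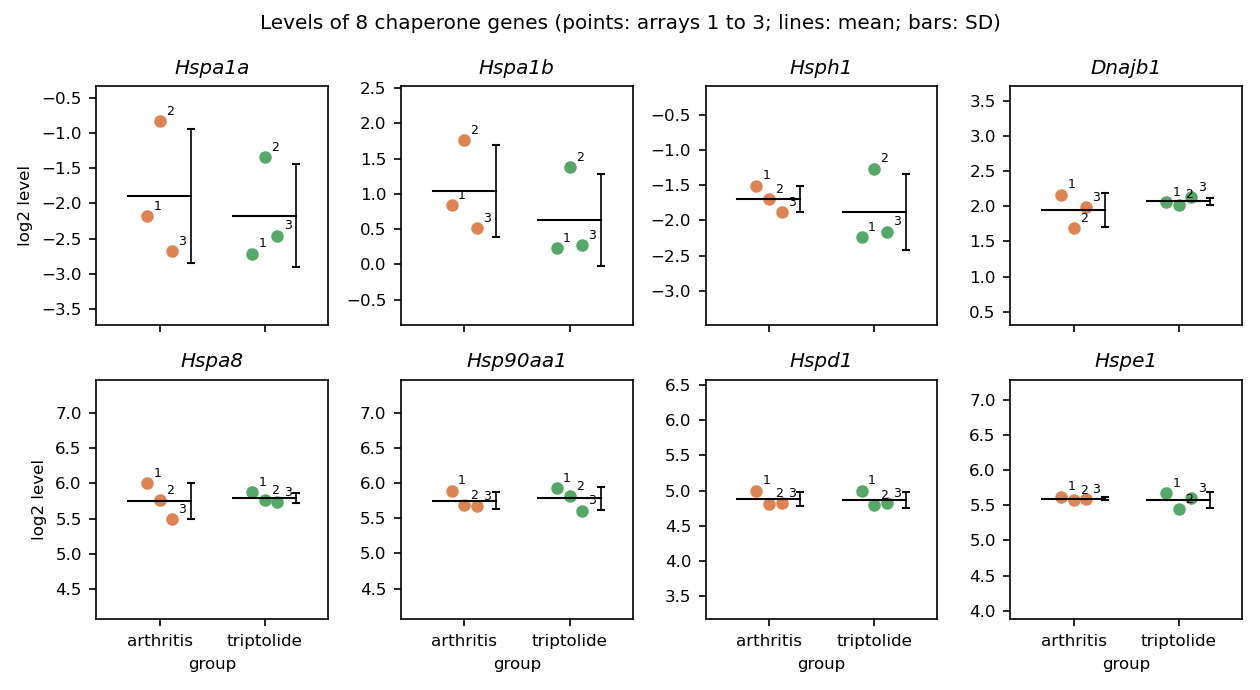
Log2 level (0 is the array's 75th percentile) of 8 chaperone genes in each group, with points numbered by array, lines at the group mean and bars of 1 SD (n = 3); every panel spans the same number of log2 units. Hspa1a, Hspa1b and Hsph1 spread with arrays 2 on top in triptolide, and the lower row stays within 0.52.

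Neither HSP90 nor the mitochondrial chaperonin passed the test. Hsp90aa1, the inducible HSP90, stood at 5.89, 5.69 and 5.67 in arthritis and 5.93, 5.82 and 5.61 with triptolide, a difference of 0.035 (SE 0.16, 95% interval -0.35 to 0.42). Its other 3 probes differed by 0.011, -0.028 and 0.24. Hsp90ab1, the isoform of unstressed cells, which is also counted with the stress-induced class and holds that class's median, stood at 6.10, 6.41 and 6.06 against 6.10, 5.69 and 6.24. Its difference was -0.18 (SE 0.20, 95% interval -0.67 to 0.31), and 0.18 after normexp background correction. All 3 of its probes were lower, by -0.17 to -0.29. The probe at -0.29 is placed at 42475398 to 42475457 on the minus strand of chromosome 9 (rn4). The brightest Hsp90ab1 probe is placed at 11036014 to 11036073 on the plus strand, so which locus the former reads is uncertain. Hspd1, the HSP60 barrel of the mitochondrial chaperonin, stood at 4.999, 4.82 and 4.83 against 5.001, 4.79 and 4.82. Its partner Hspe1, the HSP10 lid that shares its upstream region, stood at 5.62, 5.58 and 5.58 against 5.67, 5.45 and 5.60. Both were highest on triptolide 1 and lowest on triptolide 2, with ranges of 0.21 and 0.22. The differences were -0.0092 (SE 0.15) for Hspd1 and -0.023 (SE 0.14) for Hspe1. Its further probes placed Hspd1 at -0.25, -0.19 and 0.082, each with an SE of 0.16 to 0.19.

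For 7 chaperones picked after their values were seen, namely Hspa8, Hsp90aa1, Hspd1, Hspe1, Dnaja1, Dnajb1 and Stip1, the 95% intervals of the brightest probes ran at most from -0.39 to 0.54, a 1.31-fold fall to a 1.45-fold rise. Some dimmer probes of the same genes had wider intervals, which reached -0.74 (Hspa8) at the lowest and 0.71 (Hsp90aa1) at the highest. The intervals of 16 of the 32 genes stayed within 1 log2 unit of 0 on both sides. Those of the other 16 reached past 1 unit on at least 1 side.

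J-domain proteins fell into steady and variable members, with 7 of 8 lower in value with triptolide (6 of 8 after normexp background correction). Dnajb1, the main inducible partner of HSP70, stood at 2.16, 1.69 and 1.99 in arthritis and at 2.06, 2.02 and 2.13 with triptolide. The triptolide values sat inside the arthritis range, with a difference of 0.12 (SE 0.17) and of -0.076 (SE 0.20) for a dimmer second probe. Dnaja1 and Dnaja2, co-chaperones of cytosolic HSP70, differed by -0.050 (SE 0.14) and -0.23 (SE 0.21), and Dnajb6, an inhibitor of protein aggregation, by -0.15 (SE 0.23). A dimmer second Dnajb6 probe differed by -0.58 (SE 0.43), the widest gap between probes of a member. Dnaja4 stood at -1.77, 1.46 and -1.53 against -1.58, -1.79 and -1.72. Dnajb5 stood at -1.46, 1.03 and -2.20 against -1.96, -2.12 and -2.08. On arthritis 2, with muscle markers at 7.49, these were 3.2 and 3.1 above the median of the other arrays, and their differences of -1.08 (SE 0.84) and -1.17 (SE 0.79) were -0.049 and -0.22 without it. Dnajb2, a neuronal J-domain protein, and Dnajb4 were also highest on arthritis 2 and differed by -0.14 (SE 0.31) and -0.24 (SE 0.25).

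The muscle-linked small heat shock proteins had the widest ranges of the module. Cryab, the alpha-B crystallin that protects desmin and titin in muscle fibres, stood at 2.70, 9.44 and 3.14 in arthritis and at 4.98, 6.28 and 4.09 with triptolide. Hspb6, the HSP20 of smooth and striated muscle, stood at -0.17, 6.12 and -0.48 against 1.09, 0.33 and 0.66. Hspb7, a heart and skeletal muscle form, stood at -1.87, 3.03 and -2.41 against -2.02, -1.65 and -1.78, and its second probe differed by -1.28 (SE 1.42) where the first differed by -1.40 (SE 1.39). For all 3, arthritis 2 lay above every triptolide array and arthritis 3 below every one, so the groups overlapped.

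Hspb2 and Hspb3 form a complex of their own in muscle. Hspb2 stood at -4.0, 2.60 and -4.37 against -3.71, -1.32 and -3.01, and Hspb3 at -7.10, 4.53 and -7.29 against -1.19, -6.63 and -1.75. Hspb2 was well above background on 2 arthritis and 3 triptolide arrays, and Hspb3 on 1 and 2. Hspb3 ordered the arrays much as skeletal muscle markers did, with arthritis 2 at the top, triptolide 1 and 3 next and triptolide 2 near arthritis 1 and 3. Hspb2, Cryab and Hspb7 instead had their second highest value on triptolide 2. The Hspb2 and Cryab probes lie 5251 bases apart on chromosome 8 of rn4 (54106086 to 54106145 and 54111396 to 54111455), in genes known as close neighbours. The probes of Hspb2 and Hspb3 are shown because their signals separate these patterns.
Hspb2 probe: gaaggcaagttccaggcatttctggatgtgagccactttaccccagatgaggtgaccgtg
Hspb3 probe: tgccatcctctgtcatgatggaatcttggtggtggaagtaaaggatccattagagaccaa

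**Figure D3:**
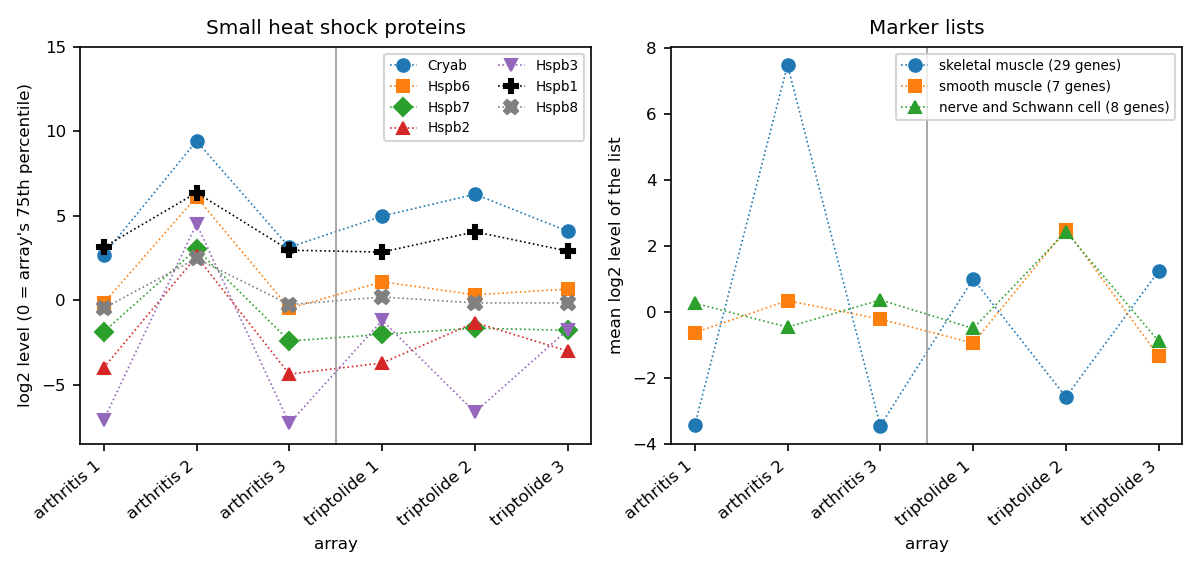
Left, log2 level (0 is the array's 75th percentile) of the 7 small heat shock protein genes on each array; right, mean log2 level of 3 marker lists on the same arrays, with dotted lines joining the points of a gene or list only to guide the eye. All 7 genes peak on arthritis 2, as do skeletal muscle markers at 7.49, while Cryab, Hspb2 and Hspb7 have their second highest values on triptolide 2, where smooth muscle and nerve markers peak.

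Across the 6 arrays the differences of these genes were -1.40 (Hspb7), -1.13 (Hspb6, SE 1.73), -0.75 (Hspb2, SE 1.90), 0.026 (Cryab, SE 1.81) and 0.099 (Hspb3, SE 3.41), each with a limma adjusted p of 0.994 to 0.999. With slide as a block Hspb2 was at -1.79, Hspb6 at -0.73 and Hspb3 at 2.09, with no call. Without arthritis 2 all 5 values were higher with triptolide. Cryab was then at 2.20 (SE 0.65) and Hspb6 at 1.02 (SE 0.27), each with an adjusted p of 0.9997 by limma. Their unadjusted limma p-values were 0.0191 and 0.0121, where 3.35% of all probes were under 0.05. Arthritis 2 was singled out after seeing these values, so they support no call. Hspb2 was at 1.51 and Hspb7 at 0.32, the former without a firm size because Hspb2 was dim on part of the arthritis arrays. Hspb3 was not well above background on arthritis 1 or 3, so its fitted values in this and the next setting give no size. Triptolide 1 and 3 were at least 10.9-fold higher than those arrays, a bound set by the dimmest probes well above background on arthritis 1 and 3. The arrays in this bound were picked by their Hspb3 values, so it supports no call. It leaves out arthritis 2, at 4.53, and triptolide 2, at -6.63. With triptolide 2 left out as well, a choice made after seeing the data, the fit gave Hspb3 an adjusted p of 0.0269 by limma. That value supports no call, because Hspb3 entered this comparison only through the arrays where it was high. Skeletal muscle markers stood at -3.45 and -3.46 on arthritis 1 and 3 and at 1.00 and 1.24 on triptolide 1 and 3.

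Both small heat shock proteins classed as stress-induced were highest on the array with muscle markers at 7.49. Hspb1, the HSP27 that binds actin filaments, stood at 3.15, 6.37 and 2.97 in arthritis and at 2.85, 4.06 and 2.91 with triptolide. Its highest values were on arthritis 2 and triptolide 2. Hspb8, the partner of Bag3 in selective autophagy, stood at -0.48, 2.48 and -0.26 against 0.19, -0.16 and -0.16. The differences of -0.89 (SE 0.95) and -0.62 (SE 0.78) became 0.22 and 0.33 without arthritis 2. All 7 small heat shock genes were thus highest on arthritis 2, against 18.9% of all tested probes.

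Of the co-chaperones, Bag3, which couples HSP70 to autophagy and is abundant in muscle, stood at 3.96, 5.70 and 4.12 against 3.93, 4.10 and 3.98. Leaving out arthritis 2, which was 1.71 above the median of the others and had muscle markers at 7.49, moved its difference from -0.59 (SE 0.46) to -0.037. Stip1, the adaptor that hands clients from HSP70 to HSP90, varied by 0.22 and differed by -0.057 (SE 0.14). Ahsa1, the activator of the HSP90 ATPase, was reached through its RefSeq accession by 1 probe that the files name otherwise, and that probe differed by -0.16 (SE 0.14). The transcription factor gene Hsf1 stood at 1.96, 2.04 and 1.82 against 1.67, 2.03 and 1.79, with a difference of -0.11 (SE 0.16). Hsf2, a related factor known from development, stood at 0.92, 2.22 and 0.85 against 1.01, 0.65 and 0.83, with a difference of -0.50 (SE 0.39) that was -0.058 without arthritis 2, where it too was highest.

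**Figure D4:**
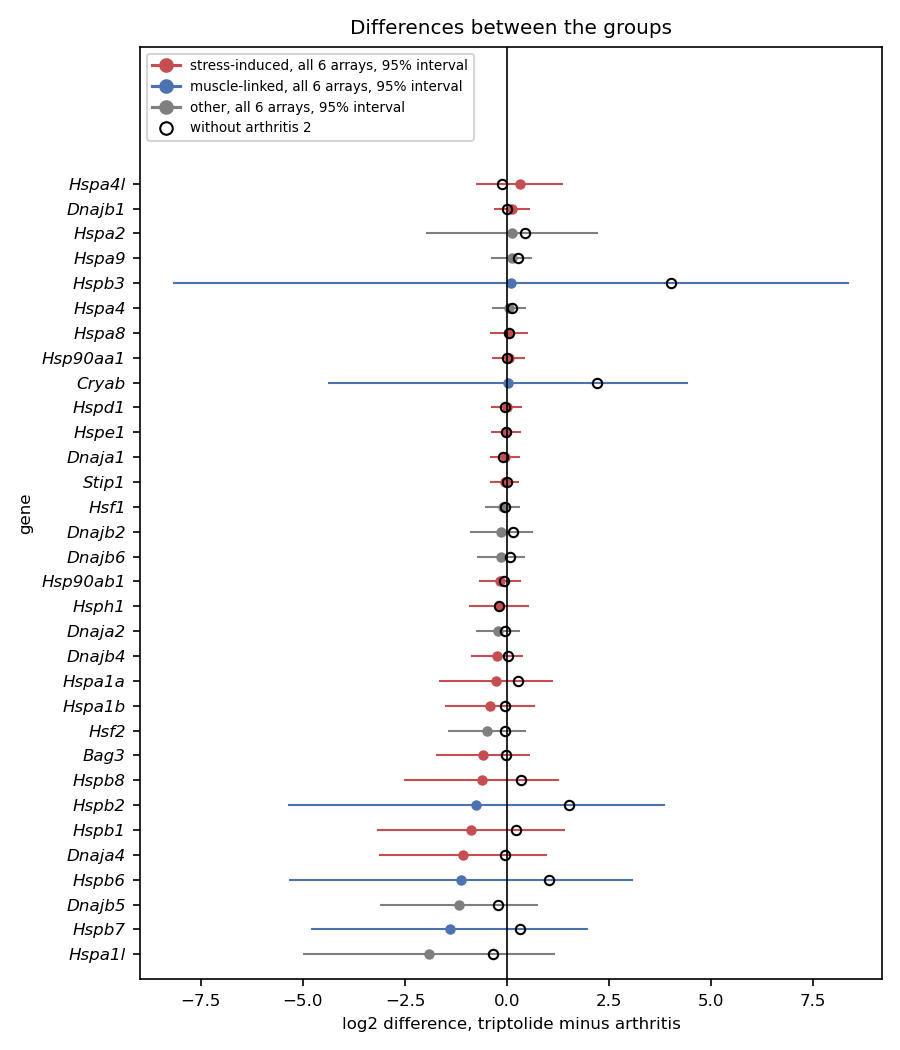
Log2 difference, triptolide minus arthritis, of each of the 32 genes with its 95% interval from the limma fit (n = 3 arrays per group), coloured by class; open circles give the difference without arthritis 2. All 32 intervals include 0, and the open circles of the 5 muscle-linked genes lie right of 0, that of Hspb3 against arthritis arrays below background.

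Other lists of protein folding genes are given by their counts. Of 19 chaperones of the endoplasmic reticulum, which fold secreted proteins and answer to the unfolded protein response, 15 were higher in value with triptolide (median 0.20, and 15 under each other scaling) and 0 passed by limma at either an adjusted or an unadjusted p under 0.05. Their lowest value was on arthritis 2 for 16 of 19, against 37.3% of all tested probes, and their highest there for 0. Of 27 further cytosolic and mitochondrial co-chaperones, 19 were lower (median -0.037), a balance that turned under normexp background correction, with 12 lower (median 0.0076). Their highest value was on arthritis 2 for 13 of 27, and for 3 of 3 prefoldin genes, against 18.9% of all tested probes. In this list 1 of 27 had an unadjusted p under 0.05, where 3.24% of all tested probes did. This was Fkbp5, an HSP90 partner in steroid receptor complexes, at -0.92 (SE 0.25, limma adjusted p = 0.994). All 8 subunits of the cytosolic chaperonin TRiC were tested, with 5 lower (median -0.071, and 4 to 6 lower under the other scalings), and 7 had their lowest value on triptolide 2, against 24% of all tested probes. The 3 of 6 prefoldin genes with a probe differed by -0.057 to -0.0060, and 2 of them were higher after normexp background correction.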

How the data were processed

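RNA (0.5 ug per sample, per the labels' protocols) was labelled with Cy3 and hybridised to rat oligonucleotide arrays of 1 colour. The deposited scanner files hold spot intensity that the scanner software had already corrected for background and spatial trend, per the file headers, and probe positions on rn4. Those headers name Agilent Feature Extraction 10.7.3.1, the submitters' processing notes version 9.1. The table of log2 values deposited by the authors, with 167 rows, holds 0 probes of these genes and was not used further.

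From these files, log2 intensity was scaled by subtracting each array's 75th percentile, outlier-flagged spots were left out and spots of a probe averaged. Probes well above background on at least 3 of 6 arrays were tested with limma 3.58.1 in R 4.3.3 (lmFit, eBayes, Benjamini-Hochberg over all 25777, threshold 0.05). The probe with the highest mean signal stood for a gene. No set test was used. Every member was to be named. Alternatives changed the background correction, scaling, filter, slide, replicate block, array weights, muscle covariate, probe choice, names and arrays used. The members, lists and tests were chosen with earlier results of these data known. The fit was tested on simulated data with known changes in 200 probes. It called 11.9% of those changed by 1 log2 unit, 59.7% at 2 units and 81.8% at 3 units, with 11 false calls.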

Additional observations from a re-analysis of the deposited data

How the results depend on the processing

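In the settings that kept all 6 arrays, 0 of 32 genes (29 under the filter at all 6 arrays) passed by limma (lowest adjusted p 0.195). In these and on slide 1 alone, 8 to 11 were higher in value. Direction differed, without a call, in the following. With normexp background correction Dnaja1 was at 0.016, Hsp90aa1 at -0.034, Hsp90ab1 at 0.18 and Hspb3 at -1.41, and the stress-induced median was -0.068. With quantile normalization Hspb3 was at -0.12 and Hspe1 at 0.033; with median centring Cryab was at -0.0033; with the mean of a gene's probes Hspa8 was at -0.068. With slide as a block, which equals slide 1 alone, Cryab was at -0.11, Hspa2 at -0.67, Hspa9 at -0.054, Hspd1 at 0.12 and Hspe1 at 0.075, while without a change of direction Hspa1a was at -0.82, Hspa1b at -0.81, Hsph1 at -0.54, Hspb1 at -1.31, Hspb2 at -1.79, Hspb3 at 2.09, Hspb6 at -0.73, Hspb8 at -0.39, Dnaja2 at -0.090, Dnajb2 at -0.35, Dnajb6 at -0.016, Hsf1 at -0.27, Hsf2 at -0.32, Hsp90aa1 at 0.18, Hsp90ab1 at -0.085, Hspa4 at 0.17, Hspa4l at 0.045, Hspa8 at 0.13 and Stip1 at -0.12. Slide 1 had 13 members without overlap, against 52.7% of all probes. With array weights (0.20 for arthritis 2, 0.24 for triptolide 2), Dnaja2 was at 0.026, Hsp90aa1 at -0.14, Hsp90ab1 at 0.10, Hspa2 at -0.62, Hspa4 at -0.019, Hspa4l at -0.26, Hspa8 at -0.038, Hspb2 at 0.84, Hspb6 at 0.73, Hspb7 at 0.066, Hspb8 at 0.16 and Stip1 at 0.019, with 2 unadjusted p under 0.05 (Hspb3 and Hsph1; 16.9% of all probes). The muscle marker mean as a covariate gave 4 (Hspa1l, Dnaja4, Dnajb5 and Hsf2, where 6.3% of all probes did), all lower with triptolide. It changed the direction of 0 of 32 members. Requiring signal well above background on all 6 arrays left 29 members, 0 of them without overlap, against 8.5% of all probes. That filter removed Hspa1l, the only member without overlap in the main fit. The cause was not tested.

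Leaving out 1 array at a time gave 0 adjusted calls, 0 to 2 unadjusted p under 0.05 (2.4% to 6.43% of all probes) and 1 to 7 of 32 members without overlap (15.9% to 28% of all probes), and a stress-induced median of -0.24 to -0.032. The differences ranged from -0.32 to -0.057 for Dnaja2, from -0.74 to -0.058 for Hsf2, from -0.29 to -0.019 for Hsp90ab1, from -1.17 to 2.20 for Cryab, from -0.0076 to 0.23 for Dnajb1, from -0.35 to 0.15 for Dnajb2, from -0.38 to 0.024 for Dnajb4, from -0.27 to 0.059 for Dnajb6, from -0.036 to 0.12 for Hsp90aa1, from -0.69 to 0.25 for Hspa1a, from -0.89 to 0.73 for Hspa2, from -0.011 to 0.14 for Hspa4, from -0.13 to 0.59 for Hspa4l, from -0.087 to 0.17 for Hspa8, from -1.48 to 0.22 for Hspb1, from -1.98 to 1.51 for Hspb2, from -1.90 to 4.01 for Hspb3 (the last against arrays below background, so no size), from -2.28 to 1.02 for Hspb6, from -2.40 to 0.32 for Hspb7, from -1.15 to 0.33 for Hspb8, from -0.074 to 0.050 for Hspd1 and from -0.072 to 0.039 for Hspe1.

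Without arthritis 2 and triptolide 2, chosen after seeing the data, 1 member had an adjusted p under 0.05 by limma (Hspb3, fitted at 5.73 against arthritis levels below background, which gives no size and supports no call), 7 had an unadjusted p under 0.05 (11.2% of all probes) and 16 did not overlap (45.1%). The stress-induced median was -0.014, Dnaja2 was at 0.073, Dnajb6 at 0.0028, Hsf2 at 0.032, Hsp90aa1 at -0.014, Hsp90ab1 at 0.090, Hspa2 at -0.58, Hspa4l at -0.38, Hspb2 at 0.82, Hspb6 at 1.20, Hspb7 at 0.24, Hspb8 at 0.39 and Hspe1 at 0.030.

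Same-numbered arrays correlated in their deviations at -0.16, -0.13 and 0.00083 over 25772 probes, which showed no pairing by number. Tissue makeup differed between arrays within each group, so these values cannot exclude such pairing. The replicate block left 0 members called by limma, 0 at an unadjusted p under 0.05 and the same values, while all probes with an unadjusted p under 0.05 went from 835 to 1066. The deposited log2 table held none of these probes, so that alternative could not be run. Signal over background limits Hspa1l, Hspb2 and Hspb3, which were dim on some arrays.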
